A study of Mus musculus with 5 samples.

Results

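H3K4me3, the trimethylated form of lysine 4 on histone H3, was compared between gliomas of Olig2cKO and control mice, peak by peak, on chromosomes 1 to 19. The members were all H3K4me3 peaks on these chromosomes, 43472 from control and 47634 from Olig2cKO tumours. These are 91106 of the 258727 peaks that the 5 peak lists of the series hold over all chromosomes. Both groups carried floxed p53 alleles on a mixed C57Bl/6, 129Sv and CD-1 background, and the Olig2cKO group carried floxed Olig2 (Olig2f/f) in addition. Tumours were induced with PDGFB and taken 25 days after injection of the virus. Each group had 1 H3K4me3 library. How the floxed alleles were recombined, and how many tumours went into a library, are not given in the sources used here. Loss of Olig2 in the Olig2cKO tumours was not checked from these data, since Olig2 chromatin immunoprecipitation (ChIP) was analysed in control tumours alone. The other libraries, 1 each, were Olig2 in control tumours and acetylated lysine 27 of histone H3 (H3K27ac) in both genotypes.

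H3K4me3 is laid down around transcription start sites and marks promoters that are active or poised. At an active promoter the start site itself is often depleted of nucleosomes, so the mark tends to stand on both flanks with a dip between them. Very broad H3K4me3 is known from genes that define a cell's identity. H3K27ac marks active promoters and enhancers. Olig2 is a basic helix-loop-helix transcription factor of the oligodendrocyte lineage, PDGFB is a growth factor that drives glial precursors to divide, and p53 is a tumour suppressor.

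With 1 library in each group there is no replicate check, no test between genotypes was made, and each difference is a difference between 2 libraries. Shares carry exact (Clopper-Pearson) 95% intervals and medians carry 95% order-statistic intervals. These intervals reflect counting error alone and treat peaks as independent, which close neighbours are not. The depth of the libraries is unknown. Gene positions on mm9, the build of the peak lists, were not used here. Peaks are therefore given by position, counted from 1, with no gene or exon attached, and the tissue was not checked against marker genes. In control tumours the H3K4me3 peaks covered 60.6 Mb with a median width of 1104 bp, and in Olig2cKO tumours 74.95 Mb with 1211 bp. The narrowest peak was 163 bp wide in control and 222 bp in Olig2cKO tumours, and 1% of peaks were narrower than 365 and 429 bp. For H3K27ac these 1% limits lay in the other order, at 486 bp for control and 456 bp for Olig2cKO.

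Most H3K4me3 sites were found once in each genotype, and where the lists differed in shape, the Olig2cKO list tended to hold 1 peak where control held several. Peaks that overlapped by at least 1 bp were linked, which gave 50937 regions. A region of 1 control and 1 Olig2cKO peak, called a pair, occurred 34315 times, which took in 78.9% of the control peaks and 72.04% of the Olig2cKO peaks. Control-only regions, without an overlapping Olig2cKO peak, numbered 3537 (8.14% of control peaks). Olig2cKO-only regions numbered 10237 (21.5% of Olig2cKO peaks). For H3K27ac these shares were larger, at 17.9% of control and 31.1% of Olig2cKO peaks. In 2614 regions several control peaks met 1 Olig2cKO peak, and these regions are called joined. In 143 regions 1 control peak met 2 Olig2cKO peaks, and these are called split. The remaining 91 regions held at least 2 peaks of each genotype.

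Paired peaks were wider in Olig2cKO tumours, and they were wider at both ends by similar lengths. The Olig2cKO peak was the wider one in 26353 of 34315 pairs, which is 76.8% of the pairs (76.3 to 77.2). The control peak was the wider one in 7892 pairs (23.0%). Median widths over the pairs were 1162 bp for the control peaks and 1353 bp for their partners. Pair by pair, the Olig2cKO peak exceeded its control partner by a median of 151 bp (148 to 154), and the middle 50% of pairs lay between 12 and 341 bp. Both edges lay further out in the Olig2cKO peak in 55.7% of pairs (55.2 to 56.2), and both lay further in in 9.07% (8.77 to 9.38). In 34.6% 1 edge lay further out and the other further in.

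The edge at the lower coordinate lay further out by a median of 62 bp (61 to 64), and the edge at the higher coordinate by 65 bp (64 to 67). The midpoint of the peaks hardly moved to either side, with a median signed shift of 0.5 bp and a median absolute shift of 67 bp. The shifts of the 2 edges of a pair were weakly related (Spearman rho 0.17 over 34315 pairs, whose edges share libraries and peak calls). Both edges lay within 100 bp of each other's position in 9183 pairs (26.8%) and within 50 bp in 3340 (9.73%).

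**Figure D1:**
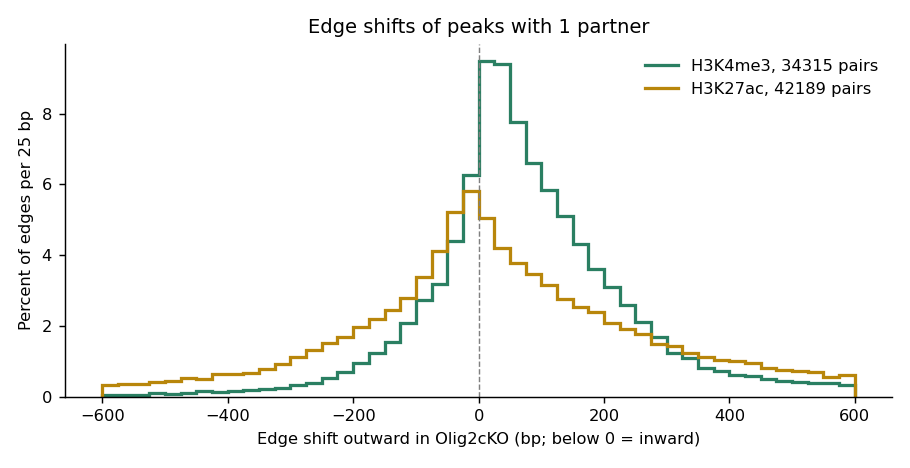
Shift of peak edges in Olig2cKO against control tumours, in bp on the x axis with outward shifts above 0, as the percent of all edges per 25 bp on the y axis, for pairs of H3K4me3 (green) and H3K27ac (ochre) peaks. H3K4me3 edges pile up above 0, with 73.2% of them further out, while H3K27ac edges lie on both sides, with 54.9% further out. Shifts beyond 600 bp, 4.85% of H3K4me3 and 14.2% of H3K27ac edges, are not drawn.

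The greater width in Olig2cKO tumours was found in every class of width and of score rank, and on all 19 chromosomes. Over 10 classes of equal size by the mean width of the pair, the median difference was 85 bp (75 to 92) in the narrowest class, with a median width of 611.5 bp, and 291 bp (271 to 313) in the widest, with 3631.5 bp. In proportion it was smaller in wide peaks: the Olig2cKO peak was 1.15 times as wide in the narrowest class, 1.18 times in the third class and 1.08 times in the widest. Over 10 classes by mean score rank, the median difference was 115 bp in the lowest class, 175.5 bp in the third and 121 bp in the highest. The share of pairs wider in Olig2cKO tumours stayed between 72.7% and 79.1% over the classes of width. Over the 19 chromosomes it ran from 74.1% to 78.9%, and the median difference ran from 135 to 173 bp.

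H3K27ac, the mark most like it in these data, was less one-sided. Of its 42189 pairs, 57.1% (56.7 to 57.6) were wider in Olig2cKO tumours, with a median difference of 75 bp (70 to 80). In its narrowest class the difference turned to -15 bp (-22 to -8), and in its highest class by mean score rank to -17 bp (-31 to -7). Both edges lay within 100 bp in 15.0% of H3K27ac pairs. The paired widths were more alike for H3K4me3 (Spearman rho 0.88 over 34315 pairs) than for H3K27ac (0.73 over 42189 pairs), where the peaks of a mark share its 2 libraries. Whether the difference in narrow peak limits between the libraries has a part in the edge shifts was not tested.

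Some peaks reached far further on 1 side. An edge lay out by 500 bp or more in 3779 pairs (11.0%), and in 1641 of these the opposite edge stayed within 100 bp. An edge lay in by that much in 531 pairs (1.55%). The stretches gained in this way in Olig2cKO tumours numbered 4021, with a median length of 757 bp, and the stretches lost numbered 537, with a median of 679 bp. H3K27ac, which had no part in choosing them, was set beside them. Of the gained stretches, 18.2% (17.0 to 19.4) carried H3K27ac in Olig2cKO tumours alone and 8.88% (8.02 to 9.80) in control tumours alone. Of the lost stretches, 5.21% (3.49 to 7.45) carried it in Olig2cKO tumours alone and 14.3% (11.5 to 17.6) in control tumours alone. Acetylation in 1 genotype alone thus lay more often with the genotype that had the longer H3K4me3 peak, in both directions. Most stretches carried H3K27ac in both genotypes or in neither. Whole pairs lean to Olig2cKO by themselves. Of all 34315 pairs, 2944 carried H3K27ac in Olig2cKO tumours alone and 1804 in control tumours alone. Part of the lean at gained stretches is thus shared by all pairs. Olig2 was listed on 24.5% (23.2 to 25.9) of the gained and 35.6% (31.5 to 39.8) of the lost stretches. Olig2 was mapped in control tumours alone, which can favour stretches marked there.

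The pair with the largest gain in width, among pairs with a mean score percentile of at least 50, lay on chromosome 2. Its control peak ran from 34625687 to 34627451 (1765 bp) and its Olig2cKO peak from 34625794 to 34633494 (7701 bp), so that 1 edge lay 6043 bp further out while the other lay 107 bp further in. The second lay on chromosome 3, where a control peak from 122186012 to 122187476 (1465 bp) met an Olig2cKO peak from 122185455 to 122192327 (6873 bp). It carried an Olig2 peak and no H3K27ac peak in either genotype. The third, on chromosome 3 from 142222291 to 142225281 in control (2991 bp), reached from 142222066 to 142230334 in Olig2cKO tumours (8269 bp). There the H3K27ac peak was wider in the same genotype, at 2541 bp for control and 7528 bp for Olig2cKO. At all 3 most of the extension lay on the side of the higher coordinate.

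Within the same limit of mean percentile, the largest loss of width lay on chromosome 1, where a control peak from 173175602 to 173182779 (7178 bp) met an Olig2cKO peak from 173175780 to 173178512 (2733 bp). H3K27ac was broad there in both genotypes, at 7026 bp for control and 5957 bp for Olig2cKO. The second lay on chromosome 7, from 116581012 to 116586490 in control (5479 bp) and from 116581503 to 116583960 in Olig2cKO tumours (2458 bp), and it had an H3K27ac peak of 2809 bp in control and none in Olig2cKO tumours. The third lay on chromosome 4, from 45977432 to 45985061 in control (7630 bp) and from 45977494 to 45982310 in Olig2cKO tumours (4817 bp). As with the gains, 1 edge held most of the change.

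Joined and split regions were far from balanced, and the 2 histone marks were unbalanced in opposite directions. For H3K4me3, joined regions were 18.3 times as many as split ones, or 94.8% (93.9 to 95.6) of the 2 kinds together. For H3K27ac, split regions were 3.45 times as many as joined ones, with 1938 split and 561 joined. Among the joined H3K4me3 regions, 2552 had 2 control peaks, 58 had 3 and 4 had 4. When peaks of a list within 1 kb of each other were merged first, 229 joined and 22 split regions were left, so most joined regions bridged gaps of at most 1 kb. For H3K27ac the same merging left 222 split and 200 joined regions, so its imbalance was nearly lost. Other settings kept its direction. With scores of at least 100 there were 966 split and 87 joined H3K27ac regions. With lists cut to equal length by score there were 1332 and 561.

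A gap is the stretch between neighbouring peaks of 1 list, at most 1 kb long. It was counted as closed where 1 peak of the other genotype overlapped both neighbours, and as kept where the neighbours met different peaks. The control H3K4me3 list held 7198 gaps, of which 2753 (38.2%, 37.1 to 39.4) were closed in Olig2cKO tumours and 3947 (54.8%) were kept. The Olig2cKO list held 5185 gaps, of which 234 (4.51%, 3.96 to 5.11) were closed in control tumours. Closed control gaps were short, with a median of 125 bp and the middle 50% between 69 and 193 bp. Kept gaps had a median of 384 bp. The share closed was 88.5% for control gaps of 1 to 50 bp, 74.5% for those over 100 and up to 150 bp, 48.4% for those over 150 and up to 200 bp and 5.64% for those over 500 bp. Gaps of the Olig2cKO list were closed in control tumours in 19.7% of cases at 1 to 50 bp and in 5.98% over 100 and up to 150 bp.

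The peaks beside a gap were sorted by score into a weaker and a stronger neighbour, so a difference between these is set by the sorting. At closed control gaps the weaker neighbour had a median score of 249.2 and the stronger one 1060, and at kept gaps these were 329 and 1157, where the score is the value that the authors' peak caller gave to a peak. Scores are not scaled between libraries and are used here only to rank or describe peaks of 1 list.

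**Figure D2:**
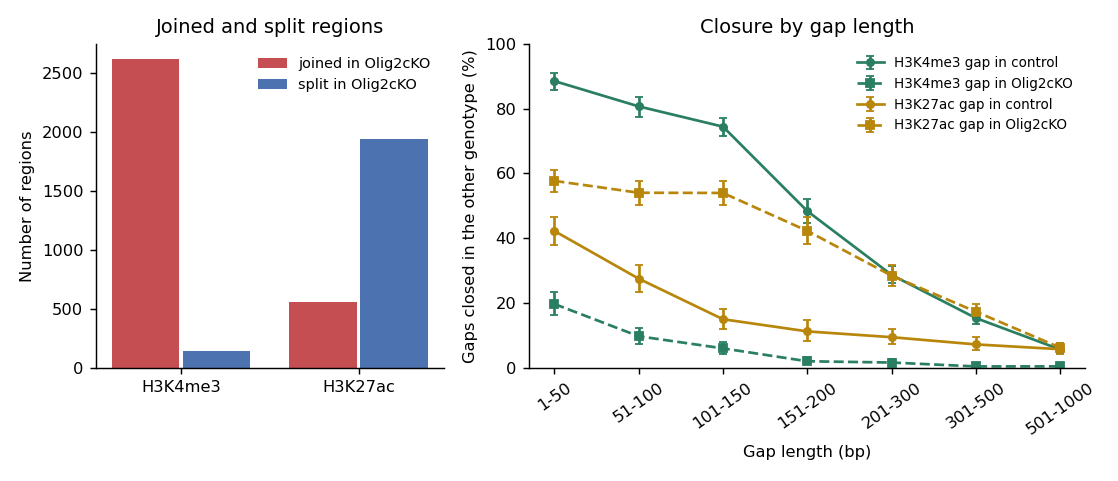
Left, number of regions joined (red) or split (blue) in Olig2cKO tumours for each mark. Right, percent of gaps closed in the other genotype on the y axis by gap length in bp on the x axis, for gaps of each list, with exact 95% intervals. H3K4me3 gaps of control tumours and H3K27ac gaps of Olig2cKO tumours close most often at short lengths.

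A single H3K27ac peak spanned H3K4me3 gaps of control tumours more often in control than in Olig2cKO tumours, at closed and at kept gaps. Of the 2753 control H3K4me3 gaps that closed in Olig2cKO tumours, 45.3% (43.4 to 47.2) were spanned by a single control H3K27ac peak and 13.7% (12.5 to 15.1) by a single Olig2cKO H3K27ac peak. Of the 3947 kept gaps, which were longer, these shares were 6.26% (5.52 to 7.06) and 2.20% (1.77 to 2.71), so the order of the genotypes was not particular to closed gaps. The other way round, 2028 gaps in the Olig2cKO H3K27ac list were closed in control tumours. A single H3K4me3 peak spanned 42.1% (39.9 to 44.3) of them in control and 70.6% (68.5 to 72.5) in Olig2cKO tumours. Of the 2262 kept gaps of that list it spanned 5.88% (4.95 to 6.93) and 20.2% (18.6 to 21.9), again in the same order. At 517 H3K4me3 gaps, 18.8% (17.3 to 20.3) of the 2753, the H3K27ac gap was open in Olig2cKO and closed in control tumours. At 16 (0.581%, 0.333 to 0.942) the H3K27ac gap was open in control and closed in Olig2cKO tumours, the same order as H3K4me3. Per H3K27ac gap, these were 25.5% of the 2028 gaps closed in control and 2.60% of the 615 gaps closed in Olig2cKO tumours. Where closed gaps of both marks met, the marks thus lay in opposite order far more often than in the same order, although most closed H3K4me3 gaps met no closed H3K27ac gap.

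Olig2 peaks touched closed and kept control H3K4me3 gaps about as often, at 65.5% (63.6 to 67.2) and 65.1% (63.6 to 66.6). Within single length classes the intervals of the 2 kinds overlapped as well, for example 66.4% and 66.7% over 100 and up to 150 bp, and 68.6% and 65.7% over 150 and up to 200 bp. A difference in Olig2 between closed and kept gaps was thus not detectable in these lists.

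**Figure D3:**
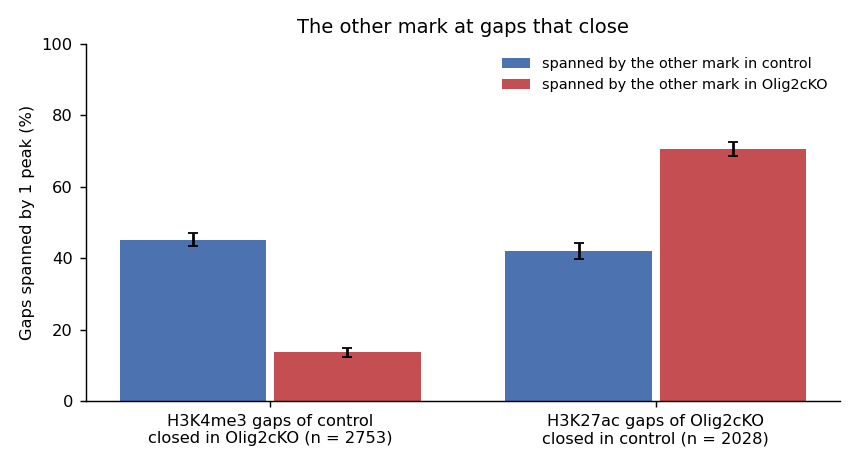
Percent of closed gaps that a single peak of the other mark spans, in control (blue) and Olig2cKO tumours (red), with exact 95% intervals. H3K4me3 gaps of control tumours are spanned by H3K27ac more often in control (45.3%) than in Olig2cKO tumours (13.7%), and H3K27ac gaps of Olig2cKO tumours are spanned by H3K4me3 more often in Olig2cKO (70.6%) than in control tumours (42.1%).

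The regions with most pieces show the shape. On chromosome 11, 1 Olig2cKO peak from 74642653 to 74647242 (4590 bp) covered 4 control peaks of 1570, 316, 812 and 1177 bp, which were separated by 110, 134 and 189 bp. H3K27ac was listed there as 1 peak in control and 2 in Olig2cKO tumours. On chromosome 10, an Olig2cKO peak from 22448360 to 22452464 (4105 bp) covered 4 control peaks with gaps of 159, 117 and 130 bp, of which the first scored 1574 and the others between 64.6 and 365. A second region of chromosome 10, from 13683255 to 13690289 in Olig2cKO tumours (7035 bp), held 4 control peaks, 1 control H3K27ac peak and 3 Olig2cKO H3K27ac peaks. All 3 of these regions carried 1 Olig2 peak, as did both split regions described next. Olig2 also overlapped 19596 of all 34315 pairs, so it does not set joined regions apart. Of the split regions, the one with the highest total score lay on chromosome 4 from 130035750 to 130039063 in control (3314 bp), where 2 Olig2cKO peaks of 1718 and 1713 bp stood 26 bp apart. The second lay on chromosome 5 from 147196087 to 147198578 in control (2492 bp), where the Olig2cKO pieces were 261 bp apart and scored 127.9 and 2772.

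Where neighbouring pairs lay close together, the edges that faced each other lay out by less than the edges that faced away. Neighbours whose facing edges had met are joined regions and are not among these pairs, so the smaller shift is in part set by how the pairs were chosen. Among 4291 neighbouring pairs less than 2 kb apart, the facing edges lay out by a median of 43 bp and the far edges by 67 bp. Between 2 and 10 kb apart, over 4868 neighbours, the medians were 62 and 59 bp. Changes of score rank, described next, of close neighbours ran weakly against each other (Spearman rho -0.21 over the 4291 neighbours), while those of neighbours 2 to 10 kb apart were unrelated (0.02). These neighbours share libraries.

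Within-list ranks of the score were alike in both genotypes. Ranks were taken among the 34315 pairs of each list, so that both run over the same number of peaks, and are given as percentiles with 100 for the highest score. The 2 rankings had a Spearman rho of 0.90 over the pairs, against 0.71 over the 42189 H3K27ac pairs. The median absolute change was 6.32 percentile points. A change of 25 points or more was found in 2301 pairs (6.71%), of which 1258 ranked higher in Olig2cKO tumours (3.67% of all pairs) and 1043 ranked lower (3.04%). For H3K27ac, 23% of pairs changed by as much. The top of the H3K4me3 ranking was not resolved, since scores pile up at 3100: in the whole lists 652 control and 428 Olig2cKO peaks stood at 3100 or above, 462 and 293 of them at exactly 3100. The 5 pairs with the highest mean rank, which had scores of 3120 to 3233 in both lists, were alike in width as well, with differences between -99 and 172 bp, and all 5 carried 1 H3K27ac peak in each genotype and 1 Olig2 peak.

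**Figure D4:**
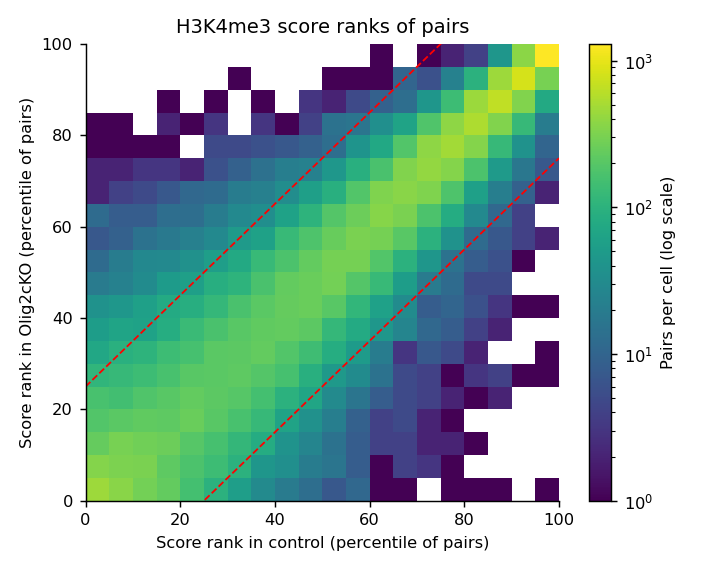
Score rank of each H3K4me3 pair in control (x axis) and Olig2cKO tumours (y axis), as percentiles among the 34315 pairs, with the number of pairs per cell in colour on a log scale. The dashed lines mark a change of 25 points, beyond which 6.71% of the pairs lie. Pairs of high rank keep close to the diagonal.

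Changes of rank were fewer where the edges of a pair were alike, and pairs that ranked higher differed in shape from pairs that ranked lower. Among the 9183 pairs with both edges within 100 bp, ranked among themselves, 1.96% (1.69 to 2.26) changed by 25 points or more and the rho was 0.95. Pairs that ranked higher in Olig2cKO tumours had a median width of 703.5 bp for the control peak and 1269 bp for the Olig2cKO peak, and the latter was the wider one in 96.9% of them. Pairs that ranked lower had nearly equal median widths, 1233 bp for the control peak and 1245 bp for the Olig2cKO peak. Pair by pair, however, their median difference was 122 bp, against 142 bp for pairs with a smaller change and 532.5 bp for pairs that ranked higher. The Olig2cKO peak was the wider one in 58.7% (55.6 to 61.7) of pairs that ranked lower, against 76.6% of pairs with a smaller change. Among the 3584 pairs wider by 500 bp up to 1 kb, 14.3% ranked higher and 2.68% lower by 25 points. Among the 342 pairs wider by 2 kb or more, the order turned, with 8.19% higher and 36.5% lower (31.4 to 41.9). In either list the score itself was not monotonic in width. For control peaks its median was 124.4 under 1 kb, 1674 at 3 to 4 kb and 145.5 at 8 kb or more, and for Olig2cKO peaks it was 109.4, 1568 and 168.8. Ranks of much wider peaks are therefore given with their widths.

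Single changes are named among pairs with a mean percentile of at least 50, and pairs of lower mean rank include larger ones. The pair within this limit that ranked highest above its control rank lay on chromosome 13, from 48357039 to 48360041 in control and from 48356991 to 48361220 in Olig2cKO tumours, with a score of 114.5 (percentile 17.3) in control and 1502 (84.5) in Olig2cKO tumours. The second lay on chromosome 3, from 150273389 to 150274197 in control (809 bp) and from 150273053 to 150274632 in Olig2cKO tumours (1580 bp), at percentiles 19.8 and 87.0. The third lay on chromosome 11, from 113033909 to 113034412 in control (504 bp) and from 113033595 to 113034470 in Olig2cKO tumours (876 bp), at percentiles 20.5 and 83.0. The fourth lay on chromosome 17, from 79630306 to 79631149 in control (844 bp) and from 79629970 to 79631548 in Olig2cKO tumours (1579 bp), at percentiles 25.5 and 86.9. All 4 had an H3K27ac peak in Olig2cKO tumours and none in control, and the second alone had an Olig2 peak. These 4 do not stand for their whole set. Of all 194 pairs within this limit that ranked higher by 25 points or more, 40.7% had H3K27ac in Olig2cKO tumours alone. An Olig2 peak was found at 34.0% of the 194.

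Within the same limit, the 5 largest changes to a lower rank were all at peaks that were wider in Olig2cKO tumours, by 2448 to 5278 bp. On chromosome 14 a control peak from 70747935 to 70751055 (3121 bp, percentile 88.8) met an Olig2cKO peak from 70744122 to 70751244 (7123 bp, percentile 20.3). There H3K27ac was listed as 3 peaks in control and not in Olig2cKO tumours. On chromosome 1 a control peak from 39958225 to 39962031 (3807 bp, percentile 96.9) met an Olig2cKO peak from 39957981 to 39965502 (7522 bp, percentile 29.8), and H3K27ac was listed once in each genotype with similar widths of 3168 and 2940 bp. On chromosome 4 a control peak from 126353891 to 126356622 (2732 bp, percentile 98.1) met an Olig2cKO peak from 126353979 to 126361394 (7416 bp, percentile 31.8). In each of these 3 the Olig2cKO peak held nearly the whole control peak and ran on for several kb to 1 side.

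Acetylation, measured in separate libraries, lay with the direction of the rank change. H3K27ac was listed in Olig2cKO tumours alone at 385 of the 1258 pairs that ranked higher there (30.6%, 28.1 to 33.2), at 7.81% (7.51 to 8.11) of the pairs that changed by less than 25 points, and at 5.75% (4.42 to 7.34) of the pairs that ranked lower. H3K27ac in control tumours alone was listed at 2.70% (1.88 to 3.76), 5.09% (4.85 to 5.34) and 13.4% (11.4 to 15.6) of these pairs. The order held among pairs with a mean rank of 50 or more, where Olig2cKO-alone acetylation was listed at 40.7% (33.7 to 48.0) of 194 pairs that ranked higher and 6.67% (3.78 to 10.8) of 225 that ranked lower. Among pairs with both edges within 100 bp it was listed at 13 of 87 pairs that ranked higher (14.9%, 8.20 to 24.2) and 5 of 93 that ranked lower (5.38%, 1.77 to 12.1), and these intervals overlap. Control-alone acetylation was listed at 8 of these 87 pairs (9.20%, 4.05 to 17.3) and 14 of these 93 (15.1%, 8.48 to 24.0), again with overlapping intervals. It was listed at 5.58% (5.11 to 6.07) of the pairs there with a smaller change. Unlike over all pairs, those that ranked higher thus did not stand below these. So the contrast was smaller, and was not resolved, where the shape of the peak stayed the same.

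Read from the acetylation side, 2944 pairs carried H3K27ac in Olig2cKO tumours alone. Of these, 13.1% ranked higher by 25 points, against 3.67% of all pairs, and 2.04% ranked lower, against 3.04%. They were wider in Olig2cKO tumours in 87.5% (86.3 to 88.7) of cases, with a median difference of 262 bp (244 to 274). The 1804 pairs with H3K27ac in control tumours alone were wider in Olig2cKO tumours in 68.5% (66.3 to 70.7), with a median of 101 bp (87 to 115), and 7.76% of them ranked lower. The 21110 pairs with H3K27ac in both had a median difference of 140 bp (136 to 144), and the 8457 pairs with neither had 153 bp (147 to 159). All 4 kinds were thus wider in Olig2cKO tumours, by different lengths.

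The 2 marks were also compared where each had exactly 1 pair, at 19196 sites. Width differences of the marks were related with a Spearman rho of 0.30 and rank changes with 0.25, over sites that share the same 4 libraries. In the 10% of sites where H3K4me3 ranked lowest relative to control (median -19.9 points), the median H3K27ac change was -5.77 points (-6.85 to -4.93). In the 10% where it ranked highest (17.1 points), it was 13.2 points (11.9 to 14.8), and 74.2% (72.2 to 76.2) of H3K27ac pairs there ranked higher. For width, the lowest class of H3K4me3 differences (median -286 bp) had a median H3K27ac difference of -178 bp, and the highest (949 bp) had 377 bp.

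**Figure D5:**
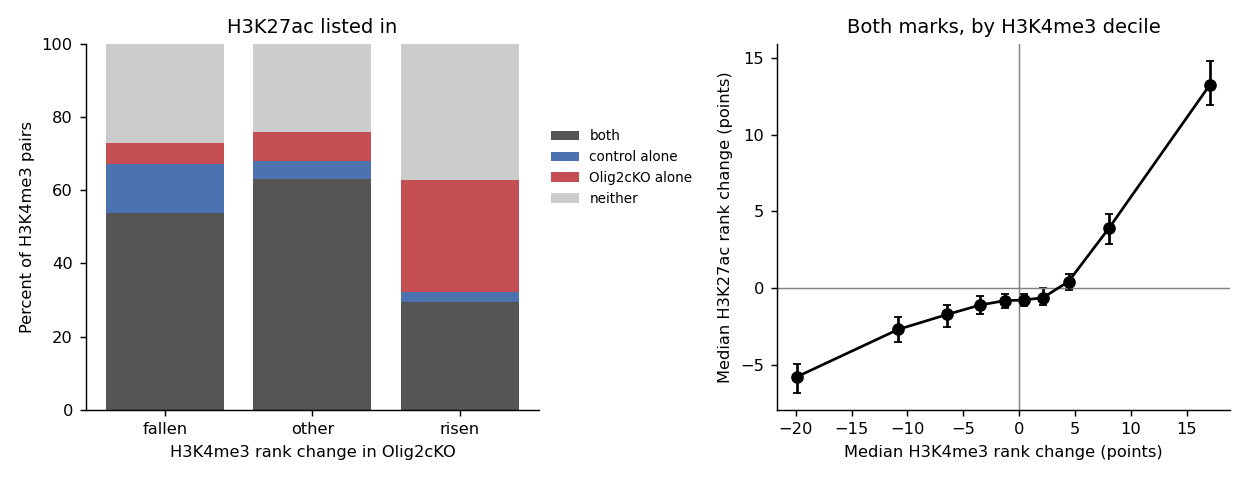
Left, percent of H3K4me3 pairs with H3K27ac listed in both genotypes, control alone, Olig2cKO alone or neither, for 1043 pairs that ranked lower (fallen) and 1258 that ranked higher (risen) by 25 points in Olig2cKO tumours and for the other pairs. Right, median H3K27ac rank change with its 95% interval (y axis) for 10 classes of H3K4me3 rank change (x axis), in percentile points over 19196 sites. H3K27ac in Olig2cKO tumours alone takes up 30.6% of the pairs that ranked higher and 5.75% of those that ranked lower.

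Olig2 sites were less frequent where H3K4me3 ranked higher in Olig2cKO tumours. An Olig2 peak of control tumours overlapped 27.2% (24.7 to 29.7) of the pairs that ranked higher, 58.2% (57.6 to 58.7) of those with a smaller change and 60.2% (57.2 to 63.2) of those that ranked lower. Among pairs with a mean rank of 10 to 50, the shares were 25.9%, 49.3% and 57.7%, and among pairs with both edges within 100 bp they were 40.2% (29.9 to 51.3), 58.3% and 50.5% (40.0 to 61.1). Pairs with Olig2 had a median width difference of 133 bp (129 to 137) and pairs without it 175 bp (171 to 180). Pairs with Olig2 also stood higher in the ranking, at a median mean rank of 58.4 against 38.9. The width difference was smaller with Olig2 within classes of rank as well. It was 127 bp (120 to 135) against 192 bp (186 to 200) at a mean rank of 10 to 50. At 50 or more it was 139 bp (135 to 144) against 169 bp (162 to 176). Pairs that ranked higher in Olig2cKO tumours had weak control peaks, with a median control score of 102.1 against 413.5 for pairs with a smaller change. The choice by rank change favours this. Pairs that ranked lower likewise had weak Olig2cKO peaks, with a median Olig2cKO score of 143.5 against 481.1. Olig2 was mapped in control tumours alone, so a lack of Olig2 and a weak control signal cannot be told apart here.

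Genotype-only peaks mostly stood apart from any peak of the other list, not at the border of one. Of the 3537 control-only peaks, 15.2% (14.0 to 16.4) lay within 1 kb of an Olig2cKO peak and 1721 lay over 10 kb away. Of the 10237 Olig2cKO-only peaks, 6.90% (6.41 to 7.40) lay within 1 kb of a control peak, and 6548 lay over 10 kb away. Control-only and Olig2cKO-only peaks were narrow, with median widths of 629 and 735 bp. They were also weak. Their median scores were 76.59 and 92.99, against 344.3 and 327.6 in the whole control and Olig2cKO lists, where scores start at 50. Control H3K27ac was listed at 60.1% (58.4 to 61.7) of control-only and 33.3% (32.4 to 34.2) of Olig2cKO-only peaks. Olig2cKO H3K27ac was listed at about the same share of both, 50.3% (48.6 to 52.0) and 51.2% (50.2 to 52.2). Olig2 was listed at 45.6% (43.9 to 47.2) of control-only and 24.2% (23.4 to 25.1) of Olig2cKO-only peaks, with the same limit that Olig2 was mapped in control tumours.

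Among genotype-only peaks more than 10 kb from the other list, the third highest by score in control tumours lay on chromosome 6 from 31166856 to 31170349 (3494 bp, score 1849, nearest Olig2cKO peak 12575 bp away), and the fourth on chromosome 8 from 96957393 to 96959358 (1966 bp, score 1798, 44383 bp away). The first of these 2 carried H3K27ac in both genotypes and Olig2, and the second carried control H3K27ac alone. In Olig2cKO tumours the second highest lay on chromosome 6 from 63665830 to 63667392 (1563 bp, score 1383), 159218 bp from the nearest control peak, and the third on chromosome 4 from 119031623 to 119033015 (1393 bp, score 1330, 13504 bp away). Of the 5 highest of each kind, 4 control-only peaks carried control H3K27ac, 4 carried Olig2cKO H3K27ac and 4 carried Olig2. Of the Olig2cKO-only peaks 0 carried control H3K27ac, 4 carried Olig2cKO H3K27ac and 0 carried Olig2.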

How the data were processed

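ChIP-seq peak lists of PDGFB-induced mouse gliomas were used, 1 list per library. Part of the genotype that both groups shared is not reported here. CASAVA, Bowtie2 and MACS with mouse build mm9 are named, per the submitters' processing notes; their versions and settings and any input library are not given in the sources used here. A deposited list holds a start, an end and a score per peak from the authors' peak caller; scores start at 50 and are not scaled between libraries. Read depth is unknown. Only chromosomes 1 to 19 were used, because the comparison was set so.

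Overlap regions were built with Python 3.11.15, numpy 2.4.6, pandas 2.3.3 and scipy 1.17.1; figures used matplotlib 3.10.9. Shared counts matched bedtools 2.31.1 in 4 of 4 comparisons, and 6000 of 6000 regions simulated with known kinds were recovered. Named regions were up to 5 per direction by rank change, width change, edge shift (mean rank of at least 50), number of pieces, or score of genotype-only peaks over 10 kb from the other list, of which 2 to 5 per kind are described. The members and lists were chosen with earlier results of these data known. Gene lists set out for the comparison need mm9 gene positions and were left out.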

Additional observations from a re-analysis of the deposited data

Results flagged for a closer look

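The balance of joined and split regions differed between the histone marks under the same contrast. Joined minus split regions came to 2471 for H3K4me3 and to -1377 for H3K27ac, so the lists of the marks moved in opposite directions between the genotypes. The difference was not tested, since each mark had 1 library per genotype. The limit below which the narrowest 1% of peaks lay also moved in opposite directions, from 365 bp in control to 429 bp in Olig2cKO tumours for H3K4me3 and from 486 to 456 bp for H3K27ac, and its part in the result was not tested.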

How the results depend on the processing

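Pairs stayed between 28791 and 35250 in number, and the Olig2cKO peak stayed the wider one, under 5 other settings: a score of at least 100, lists of equal length by score, peaks that share 50% of the shorter one, peaks within 1 kb merged, and all chromosomes. With scores of at least 100, 77.3% of pairs were wider in Olig2cKO tumours and 58 control peaks were split. With lists of equal length, 77.7% were wider, the median difference was 157 bp and 56.6% had both edges further out. With peaks within 1 kb merged, these were 75.4%, 161 bp and 53.2%, the joined regions numbered 229 and the split ones 22, and 5.18% of pairs changed rank by 25 points. Merging removes short gaps by its own construction. For H3K27ac it left 222 split and 200 joined regions. The H3K27ac, gap and acetylation values under these settings, and the restriction to pairs with both edges within 100 bp, were added after seeing the data. Among the latter pairs 1.96% changed rank by 25 points. The share of control gaps closed ran from 37.4% to 38.3%, without the settings for merged peaks and 50% overlap, which were not run for gaps. The share of pairs ranked higher that were acetylated in Olig2cKO tumours alone ran from 27.6% to 33.7% under the same 5 settings and was 14.9% among pairs with both edges within 100 bp. Of 30 named pair results, 30 were found with unchanged direction under 4 settings and 23 with peaks merged. Some pairs stand in more than 1 of these results. Those 4 settings leave the positions of peaks as they are, so width and edge results of a pair still present could not change there. No paired analysis was possible because each group had 1 library. The unknown depth of each library limits every comparison of widths, gaps and list lengths.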
